A study of Rattus norvegicus with 50 samples.

Results

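Lung tissue of rats that had inhaled nickel subsulfide at 0.15 mg/m3 for 4 weeks was compared with that of rats that had inhaled it at 0.08 mg/m3 for the same time. The members are the 10 arrays of these 2 groups, 5 at 0.15 and 5 at 0.08 mg/m3, of 50 arrays in all, and every gene with its own probe set. Nickel subsulfide (Ni3S2) is a poorly soluble nickel compound, and the concentrations correspond to 0.11 and 0.06 mg of nickel per m3. All rats were male Fischer F344 and inhaled the dust 6 hours daily and 5 days weekly, so that 4 weeks gave 20 exposure days. The study also held rats at 0, 0.04 and 0.60 mg/m3 for 4 weeks and all 5 concentrations for 1 week, again with 5 arrays per group. Each array held the RNA of 1 animal, from tissue dissected around the distal airways and alveoli of the right caudal lobe, and the 5 animals arrayed were those with the best RNA among 8 set aside for expression. The comparison was chosen as the concentration step at which the response starts after 4 weeks, and it asks which genes separate these neighbouring concentrations.

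Particles that reach the distal lung are taken up by alveolar macrophages and touch the airway and alveolar epithelium. Both cell types then release acute-phase proteins, chemokines and prostaglandins that draw monocytes and neutrophils into the tissue. Injured epithelium is replaced by division of club cells and alveolar type 2 cells, secretory cells make more mucus, and the cytochrome P450 enzymes that club cells use against inhaled chemicals are often lost in an inflamed airway. Dividing cells need mitotic proteins and newly made sterols. In a whole-tissue extract, fewer cells of a type and less RNA per cell cannot be told apart.

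Values are log2 intensities, differences are log2 of 0.15 over 0.08 mg/m3 ± the standard error (SE), and n = 5 arrays per group throughout. The adjusted p values come from limma with Benjamini-Hochberg adjustment over 13438 genes, and genes with an adjusted p under 0.05 count as called. The lung markers were high in both groups. Sftpc, the surfactant protein of alveolar type 2 cells, lay between 13.40 and 13.60 at 0.15 mg/m3 and between 13.46 and 13.56 at 0.08 mg/m3, and Scgb1a1, the secretory protein of club cells, between 13.54 and 13.64 at 0.15 mg/m3 and between 13.61 and 13.62 at 0.08 mg/m3. The 5 arrays at 0.15 mg/m3 were alike, with correlations of at least 0.994 between them, against at least 0.956 at 0.08 mg/m3. Replicate 1 at 0.08 mg/m3 stood apart from all 24 other arrays of 4 weeks on the second principal component, at 60.1, and carried skeletal muscle transcripts. The mean level of 17 skeletal muscle markers in it was 10.2, against 4.66 to 5.14 in the other 4 arrays at 0.08 mg/m3 and 4.43 to 4.65 in the 5 arrays at 0.15 mg/m3. Replicate 5 at 0.08 mg/m3 lay at -1.63 on the first component, inside the range of the unexposed arrays. Some of the 4-week differences given below lost their call or moved by over 1.5 times when either array was left out. Beside these stands the value without that array or the range of adjusted p over the arrays left out.

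**Figure D1:**
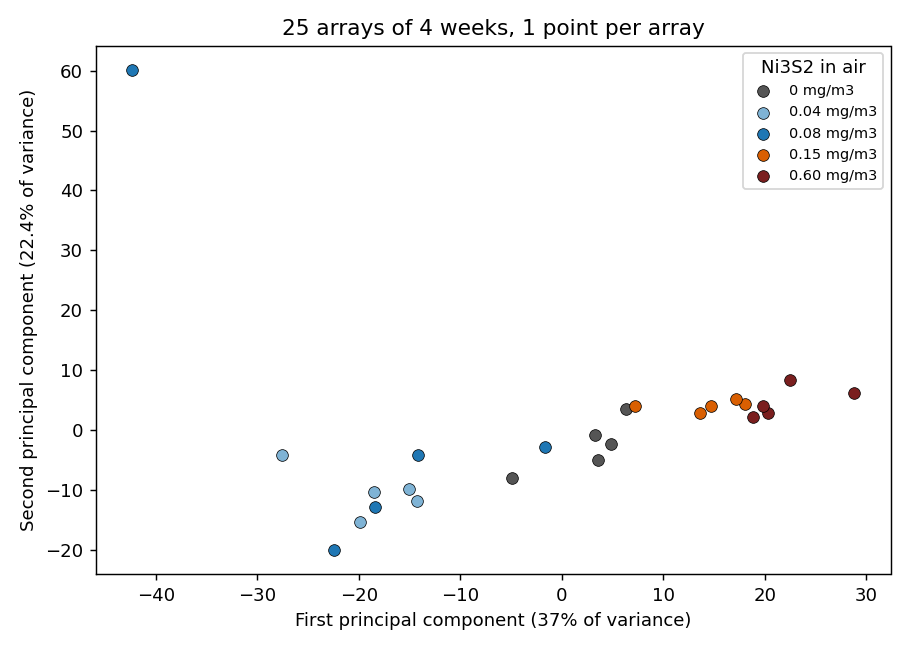
Positions of the 25 arrays of 4 weeks on the first (37% of variance) and second (22.4%) principal components of 13438 genes, 1 point per array, coloured by concentration. The arrays at 0.15 mg/m3 sit at 7.25 to 18.1 on the horizontal axis and those at 0.08 mg/m3 at -42.4 to -1.63, with replicate 1 of 0.08 mg/m3 alone at 60.1 on the vertical axis, replicate 5 at -1.63 inside the range of the unexposed arrays, and 4 of the 5 unexposed arrays between the groups.

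At 0.15 mg/m3, 2494 of 13438 genes (18.6%) differed from 0.08 mg/m3, of which 1082 (8.05% of all genes) were higher and 1412 (10.5%) lower. With each array centred on its median, 66.0% of the calls were higher, against 43.4% with the values as deposited, so the balance of directions depends on the scaling. A change of at least 1.5-fold was reached by 575 called genes, 246 higher and 329 lower. For 1116 genes (8.3%) all 5 arrays at 0.15 mg/m3 lay above all 5 at 0.08 mg/m3, and for 766 (5.7%) they all lay below. Leaving out replicate 4 at 0.08 mg/m3 lowered the number of calls to 1394, and leaving out replicate 5 raised it to 2975.

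The unexposed rats of 4 weeks, which are in neither group, divided these genes into kinds. For 919 called genes the unexposed mean lay nearer to the 0.08 than to the 0.15 mg/m3 mean, 482 of them higher and 437 lower at 0.15 mg/m3. For the other 1575 (63.2%) the unexposed mean lay nearer to 0.15 mg/m3, with 600 higher and 975 lower, whereas with each array centred on its median 1064 of this kind were higher and 568 lower. In those genes the 0.08 mg/m3 group was the one farther from the unexposed level. The nearness of a mean is a description, not a test against the unexposed rats. Tested against them, 470 of all 13438 genes were called at 0.15 mg/m3 and 1147 at 0.08 mg/m3. The mean at 0.04 mg/m3 was nearer to 0.08 mg/m3 for 2420 of the 2494 called genes (97%). The label of a step at which the response starts therefore does not describe the second kind, nor every gene of the first. Tdh and Ptges, described below, were of the first kind and already differed between 0.04 and 0 mg/m3, by 1.33 and 1.02 (adjusted p = 3.15e-05 and 0.00258). So did Chia, Scin and Gsta3 of the same kind, by 0.32, -0.93 and -0.75 (adjusted p = 0.00584, 0.00746 and 0.0042). Idi1 and Cftr, also of the first kind but higher at 0.15 mg/m3, were lower at 0.04 than at 0 mg/m3 (-0.51 and -0.48, adjusted p = 0.0456 and 0.0178). Without replicate 4 at 0.08 mg/m3 the second kind held 830 genes, and without replicate 5 it held 2101. The 5 arrays at 0.15 mg/m3 lay beyond all 15 arrays of the 3 lower concentrations for 486 genes, 319 above (2.37% of all genes) and 167 below (1.24%), and 283 and 139 of these were called. The gene groups below are ordered broadly by these kinds, although some groups hold both, and the plot of gene groups gives their counts side by side.

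**Figure D2:**
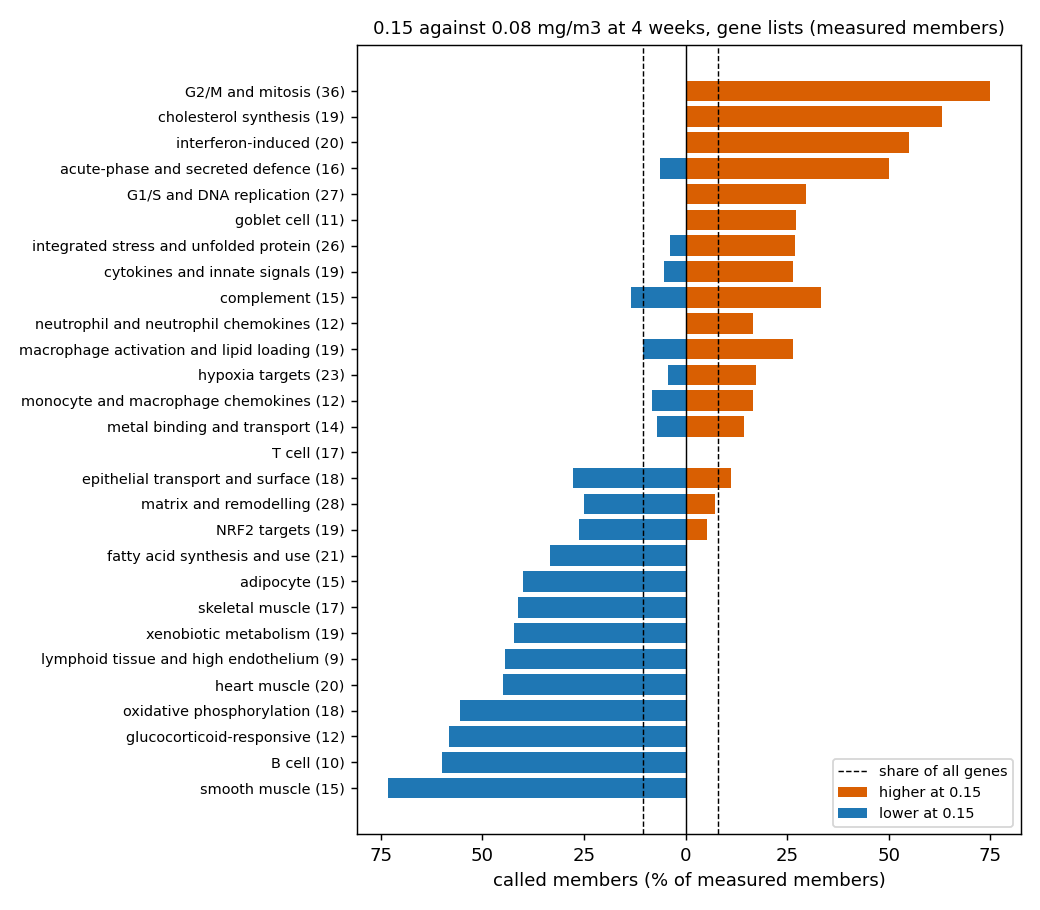
Share of the measured members of 28 gene groups that were called higher (right) or lower (left) at 0.15 than at 0.08 mg/m3 after 4 weeks, with the number measured in brackets and dashed lines at the shares of all genes (8.05% higher, 10.5% lower). Mitosis (27 of 36), cholesterol synthesis (12 of 19) and interferon-induced genes (11 of 20) reach furthest right, and smooth muscle (11 of 15) and B cell genes (6 of 10) furthest left.

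Saa3, a secreted defence protein, and Retnla, a product of activated macrophages, gave the largest rises among the named genes. Of 16 acute-phase and secreted defence genes, 8 rose, 1 fell and 7 did not pass the test, with a median difference of 0.28, against -0.02 over all genes. Saa3, a serum amyloid A protein made in the lung during the acute-phase response, measured 7.19, 8.30, 7.72, 6.93 and 7.25 at 0.15 mg/m3, against 4.18, 4.09, 4.64, 5.12 and 4.60 at 0.08 mg/m3. The groups did not overlap, and the difference of 2.95 ± 0.30 (SE, adjusted p = 6.2e-09) is a 7.75-fold change and the largest rise among the named genes. Its means from 0 up to 0.60 mg/m3, in order of concentration, were 4.21, 4.41, 4.52, 7.48 and 8.70, so the 3 lower concentrations lay together. Lcn2, which binds bacterial siderophores, rose by 1.07 ± 0.25 (SE, adjusted p = 0.0021). Chia, the acidic mammalian chitinase of the lung, measured 12.75, 12.78, 12.81, 12.77 and 12.92 at 0.15 mg/m3, against 11.84, 12.08, 12.11, 12.29 and 12.22 at 0.08 mg/m3. It rose by only 0.70 but with an SE of 0.08, and every array at 0.15 mg/m3 lay above every array of the lower concentrations. Slpi, an inhibitor of neutrophil elastase, fell by 0.82 (adjusted p = 0.00175), and its unexposed mean of 10.68 lay nearer to the 11.06 at 0.15 mg/m3 than to the 11.89 at 0.08 mg/m3.

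Among 19 genes of macrophage activation and lipid loading, 5 rose, 2 fell and 12 did not pass, with a median difference of 0.06. Retnla, which rodent macrophages secrete in type 2 inflammation, measured 11.88, 12.11, 12.02, 12.10 and 12.07 at 0.15 mg/m3, against 8.65, 9.51, 9.32, 9.52 and 9.91 at 0.08 mg/m3, a difference of 2.65 ± 0.27 (SE, adjusted p = 5.01e-09). The arrays at 0.15 mg/m3 lay within a narrow band and far above those at 0.08 mg/m3, which resembled the unexposed arrays (9.27, 9.24, 9.09, 9.25 and 9.27). Mmp12, the macrophage elastase, measured 9.05, 8.86, 8.94, 8.88 and 8.39 at 0.15 mg/m3, against 6.59, 7.31, 7.45, 7.53 and 7.41 at 0.08 mg/m3, a difference of 1.57 ± 0.27 (SE, adjusted p = 0.000117). Spp1, the cytokine osteopontin, measured 7.20, 7.37, 7.59, 6.47 and 7.14 at 0.15 mg/m3, against 5.46, 5.43, 5.48, 6.05 and 5.42 at 0.08 mg/m3, a difference of 1.59 ± 0.30 (SE, adjusted p = 0.000313). Both genes had separate groups, and both were higher again at 0.60 mg/m3, with means of 10.43 for Mmp12 and 9.60 for Spp1. Lilrb4, an inhibitory receptor of myeloid cells, rose by 1.34 ± 0.23 (SE, adjusted p = 7.8e-05). The fallers were Apoe, an apolipoprotein, and Ctsk, a lysosomal protease, at -0.51 and -0.45, and 1 fell when replicate 1 or 3 at 0.15 mg/m3 or replicate 2 or 4 at 0.08 mg/m3 was left out. Of 6 measured markers of resident alveolar macrophages, 0 were called by limma and 2 were lower at an unadjusted p under 0.05, and 2 were called without replicate 2 at 0.15 or replicate 4 at 0.08 mg/m3. Their mean level ranged from 7.58 to 8.18 at 0.15 mg/m3 and from 7.89 to 8.43 at 0.08 mg/m3.

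Some chemokines for monocytes and neutrophils also rose. Ccl2, the main monocyte attractant, measured 7.07, 8.25, 8.08, 7.18 and 7.52 at 0.15 mg/m3, against 5.77, 6.52, 6.34, 6.48 and 6.79 at 0.08 mg/m3, with no overlap and a difference of 1.24 ± 0.23 (SE, adjusted p = 0.000203). Its relative Ccl7 rose by 1.33 ± 0.27 (SE, adjusted p = 0.000747), and the eosinophil attractant Ccl24 fell by 0.60 (adjusted p = 0.00458), while the other 9 of 12 genes of that group did not pass. Cxcl1, a neutrophil attractant, measured 9.44, 9.34, 9.77, 9.53 and 9.63 at 0.15 mg/m3, against 8.03, 8.39, 8.71, 8.82 and 8.69 at 0.08 mg/m3, a difference of 1.01 ± 0.14 (SE, adjusted p = 4.59e-06). With Cxcl2, at a difference of 1.02 ± 0.21 (SE, adjusted p = 0.000747), it was 1 of 2 risers among 12 neutrophil genes and neutrophil chemokines. The other 10 did not pass, although 4 genes of the group rose with each array centred on its median. The median difference was 0.16 in the group of Ccl2 and 0.25 in the neutrophil group. Of all genes 8.05% were called higher and 10.5% lower, so these few calls describe single genes rather than the groups.

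Of 19 cytokines and innate signals 5 rose and 1 fell, and the risers included 2 enzymes of prostaglandin synthesis. Ptgs2, the inducible cyclooxygenase, measured 7.20, 6.84, 6.90, 7.18 and 7.25 at 0.15 mg/m3, against 5.41, 4.80, 5.41, 4.60 and 5.45 at 0.08 mg/m3, a difference of 1.94 ± 0.25 (SE, adjusted p = 8.33e-07). Ptges, the synthase that acts next to make prostaglandin E, measured 7.22, 7.35, 7.15, 7.40 and 7.64 at 0.15 mg/m3, against 6.27, 5.11, 5.23, 5.41 and 4.96 at 0.08 mg/m3, a difference of 1.96 ± 0.23 (SE, adjusted p = 2.11e-07). Both enzymes had separate groups, but they differed below the step. Ptges already stood at 5.32 and 5.40 at 0.04 and 0.08 mg/m3, against 4.30 in unexposed rats, whereas Ptgs2 stood at 4.97 and 5.13, against 5.33. Nfkbia, the inhibitor that NF-kB signalling induces to limit itself, measured 9.82, 9.67, 9.77, 9.83 and 9.84 at 0.15 mg/m3, against 10.43, 10.59, 10.59, 10.89 and 10.11 at 0.08 mg/m3, and fell by 0.74 (SE 0.10, adjusted p = 5.52e-06), below all 15 arrays of the lower concentrations. Among 15 complement genes 5 rose and 2 fell. Cfi, which inactivates C3b, rose by 1.20 ± 0.21 (SE, adjusted p = 0.00013), and Cfd, a protease of the alternative pathway that fat cells secrete in quantity, fell by 0.77 (adjusted p = 0.0335). Leaving out 1 array ended the Cfd call in 6 of 10 cases, with an adjusted p of 0.00711 to 0.125, and 3 complement genes rose without replicate 1 at 0.15 mg/m3.

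Many interferon-induced genes rose, unevenly between the animals at 0.15 mg/m3. Of 20 measured, 11 rose and 9 did not pass, with a median of 0.69. Cxcl10, a chemokine for activated T cells, measured 5.20, 6.72, 6.69, 4.36 and 5.20 at 0.15 mg/m3, against 3.93, 4.34, 4.15, 4.29 and 4.25 at 0.08 mg/m3, a difference of 1.44 ± 0.29 (SE, adjusted p = 0.000544). Ifit3, an antiviral RNA-binding protein, measured 6.69, 7.50, 8.02, 6.14 and 7.03 at 0.15 mg/m3, against 5.01, 6.16, 6.05, 5.98 and 6.05 at 0.08 mg/m3, a difference of 1.23 ± 0.32 (SE, adjusted p = 0.00588). Replicates 2 and 3 were the highest of the 0.15 mg/m3 group for both genes and replicate 4 the lowest, and for Ifit3 the groups overlapped. Rsad2, an antiviral enzyme, and Cxcl11 rose by 0.96 and 1.46 (adjusted p = 0.00138 and 0.000841). For Rsad2 the unexposed mean of 8.09 lay nearer to the 8.53 at 0.15 mg/m3 than to the 7.56 at 0.08 mg/m3. The count of risers fell to 7 without replicate 1 at 0.08 mg/m3, 7 without replicate 2 at 0.15 mg/m3 and 6 without replicate 3 at 0.15 mg/m3, and 5 were called when the 10 compared arrays were fitted alone.

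The 250 bases upstream of the start of 3 of these risers are shown because they hold the pattern of GAAA, any 2 bases (NN) and GAAA, the core of the element that interferon-activated factors bind. The pattern was sought on both strands (reversed, it is TTTC, any 2 bases and TTTC), matches are in capitals, and the sequences are from RefSeq with GRCr8 coordinates, 5′ to 3′ on the strand of the gene.
Cxcl10, chr14:15988816-15989065, strand +: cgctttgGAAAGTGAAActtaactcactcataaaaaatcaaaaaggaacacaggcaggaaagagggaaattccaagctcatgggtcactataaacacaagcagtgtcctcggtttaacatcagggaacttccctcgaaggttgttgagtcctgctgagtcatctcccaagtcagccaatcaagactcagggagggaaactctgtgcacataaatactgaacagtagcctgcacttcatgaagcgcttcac
Ifit3, chr1:241527076-241527325, strand +: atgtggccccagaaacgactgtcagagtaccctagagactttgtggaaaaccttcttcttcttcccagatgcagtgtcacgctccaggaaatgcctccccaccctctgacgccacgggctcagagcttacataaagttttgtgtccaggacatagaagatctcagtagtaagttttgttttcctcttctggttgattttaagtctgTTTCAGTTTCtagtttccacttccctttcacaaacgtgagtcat
Rsad2, chr6:48788121-48788370, strand -: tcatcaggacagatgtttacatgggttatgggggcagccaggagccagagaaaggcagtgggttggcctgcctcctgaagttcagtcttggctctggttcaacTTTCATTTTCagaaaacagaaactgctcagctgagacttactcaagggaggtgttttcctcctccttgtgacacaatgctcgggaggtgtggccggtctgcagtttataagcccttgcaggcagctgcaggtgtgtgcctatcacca
Of the 20 measured genes 14 had a promoter in the table, and 9 of these (64.3%) held the pattern, against 3.41% of all 33469 promoters. Of the 7 risers with a promoter 4 held it.

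Genes of mitosis had the largest share of risers among the 28 plotted groups. Of 36 measured, 27 rose and 9 did not pass, with a median difference of 0.62, and in 23 the arrays at 0.15 mg/m3 all lay above those at 0.08 mg/m3. Mki67, the marker of cycling cells, measured 5.97, 6.40, 6.49, 5.87 and 6.48 at 0.15 mg/m3, against 5.82, 4.83, 5.00, 4.49 and 5.53 at 0.08 mg/m3, a difference of 1.11 ± 0.25 (SE, adjusted p = 0.00149). Ect2, which positions the cleavage furrow, measured 6.48, 6.62, 6.84, 6.15 and 6.71 at 0.15 mg/m3, against 6.01, 5.04, 5.21, 4.96 and 5.52 at 0.08 mg/m3, a difference of 1.21 ± 0.25 (SE, adjusted p = 9e-04). For both genes replicate 1 at 0.08 mg/m3 was the highest of its group and still lay below all arrays at 0.15 mg/m3. Spc25, a kinetochore protein, and the mitotic kinase Melk rose by 1.07 and 1.28 (adjusted p = 0.00131 and 0.000835). Plk4, the kinase that starts centriole duplication, was outside the list and rose by 1.86 ± 0.30 (SE, adjusted p = 5.38e-05), with 6.93 to 7.42 at 0.15 mg/m3 and 4.85 to 5.77 at 0.08 mg/m3. The number of mitotic risers was 26 without replicate 1 at 0.08 mg/m3 and at least 20 whichever array was left out.

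Of 27 measured genes of DNA replication, 8 rose and 19 did not pass, with a median of 0.29. Ccne2, a cyclin of the G1/S transition, rose by 0.86 ± 0.18 (SE, adjusted p = 0.000783), and Rrm2, Tk1 and Mcm4, which make deoxynucleotides or open the origins, rose by 0.68, 0.53 and 0.46 (adjusted p = 0.0222, 0.0306 and 0.0306). The count fell to 2 without replicate 1 and 1 without replicate 3 at 0.08 mg/m3, and to 4, 1, 5 and 3 without replicates 2, 3, 4 and 5 at 0.15 mg/m3. It was 5 without replicate 2 at 0.08 mg/m3. Leaving out 1 array ended the call in 2 of 10 fits for Rrm2 (adjusted p = 0.0198 to 0.0533), in 6 for Tk1 (0.021 to 0.083) and in 5 for Mcm4 (0.0174 to 0.0699), and the mean of all probe sets of the gene did so for Rrm2 and Tk1 (0.0609 and 0.17).

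Promoters of 3 mitotic risers are shown for 2 patterns known from genes of the late cell cycle, the CCAAT box and TTTGAA, a form of the cell cycle homology region. Both strands were searched (reverse complements ATTGG and TTCAAA), and the upstream 250 bases are given as above. In the Mki67 promoter 1 match of each pattern overlap, in the capital run TTTGAATTGG.
Mki67, chr1:199952594-199952843, strand -: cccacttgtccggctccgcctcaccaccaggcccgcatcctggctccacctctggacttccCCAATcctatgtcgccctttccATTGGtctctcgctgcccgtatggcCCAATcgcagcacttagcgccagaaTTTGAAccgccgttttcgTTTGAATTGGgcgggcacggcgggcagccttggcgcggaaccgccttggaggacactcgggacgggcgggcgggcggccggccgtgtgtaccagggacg
Ect2, chr2:111966627-111966876, strand -: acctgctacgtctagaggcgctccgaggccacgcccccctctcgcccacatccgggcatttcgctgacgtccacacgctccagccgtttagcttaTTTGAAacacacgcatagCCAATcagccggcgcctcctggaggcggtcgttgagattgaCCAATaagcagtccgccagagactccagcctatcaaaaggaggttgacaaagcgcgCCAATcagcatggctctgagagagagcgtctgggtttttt
Spc25, chr3:74396719-74396968, strand -: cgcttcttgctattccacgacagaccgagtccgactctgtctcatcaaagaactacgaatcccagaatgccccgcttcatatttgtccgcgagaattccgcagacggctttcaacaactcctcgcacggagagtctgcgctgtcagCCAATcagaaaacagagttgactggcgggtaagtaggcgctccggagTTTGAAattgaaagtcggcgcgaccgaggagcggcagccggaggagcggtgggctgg
Of the 36 measured genes 31 had a promoter in the table. CCAAT was present in 24 of them (77.4%), against 34% of all 33469 promoters, and TTTGAA in 15 (48.4%), against 16.2%. Among the 23 risers with a promoter, 18 held CCAAT and 11 held TTTGAA.

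Most measured genes of cholesterol synthesis rose. Of 19 measured genes, 12 rose and 7 did not pass, with a median of 0.42, and for 10 the arrays at 0.15 mg/m3 lay above all 15 of the lower concentrations. Idi1, which isomerises the isoprenoid unit, measured 10.12, 9.61, 10.07, 10.06 and 10.10 at 0.15 mg/m3, against 8.91, 8.27, 8.53, 7.96 and 8.97 at 0.08 mg/m3, a difference of 1.46 ± 0.18 (SE, adjusted p = 2.11e-07). Sqle, the squalene epoxidase, measured 9.74, 9.73, 9.90, 9.89 and 9.90 at 0.15 mg/m3, against 9.29, 8.88, 8.98, 8.78 and 9.20 at 0.08 mg/m3, a difference of 0.81 ± 0.15 (SE, adjusted p = 0.000213). Neither gene overlapped between groups, and Sqle means at 0.15 and 0.60 mg/m3 were 9.83 and 9.92. Cyp51 and Tm7sf2, which act on the sterol ring, rose by 0.86 and 0.67 (adjusted p = 3.69e-07 and 0.00127). The sterol regulatory pattern TCACNCCAC, sought on both strands, was in the upstream 250 bases of 0 of the 15 members with a promoter and of 0.974% of all promoters.

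Stress genes moved in part. Of 26 genes of the integrated stress and unfolded protein responses, 7 rose and 1 fell. The endoplasmic reticulum chaperone Dnajb9 rose by 0.60 ± 0.08 (SE, adjusted p = 2.12e-06), and the transcriptional regulators Nupr1 and Atf3 rose by 0.59 and 0.58 (adjusted p = 0.00391 and 0.000322). Of 23 hypoxia targets 4 rose and 1 fell. Ankrd37 rose by 0.88 ± 0.11 (SE, adjusted p = 9.3e-07), and P4ha1, a collagen prolyl hydroxylase, and Kdm3a, a histone demethylase, by 0.54 and 0.38 (adjusted p = 0.000443 and 0.0217), of which Kdm3a was not called without replicate 4 at 0.08 mg/m3 (0.34, adjusted p = 0.0725, 0.0208 to 0.0725 over the 10 arrays left out in turn). Ddit4, which inhibits mTOR and belongs to both of these groups, fell by 0.57 (adjusted p = 0.0165). Its call was lost without replicate 4 at 0.08 mg/m3 (-0.45, adjusted p = 0.0904), without replicate 5 at 0.15 mg/m3 (0.0524) and with the 10 compared arrays alone (0.0533), with 0.00225 to 0.0904 over the arrays left out in turn. Of 19 targets of NRF2, the regulator of antioxidant genes, 1 rose and 5 fell. The riser was Hmox1, the haem oxygenase, with 9.20, 9.19, 9.29, 9.18 and 9.01 at 0.15 mg/m3, against 8.20, 8.37, 8.60, 8.75 and 8.65 at 0.08 mg/m3, a difference of 0.66 ± 0.12 (SE, adjusted p = 0.000278). Its groups did not overlap. The fallers included the glutathione transferases Gsta3 and Gstp1 and the transketolase Tkt, at -0.62, -0.40 and -0.46 (adjusted p = 0.0136, 0.00224 and 0.0123). Gsta3 was not called without replicate 1 at 0.15 mg/m3 (-0.53, adjusted p = 0.0528, 0.0107 to 0.0528 over the arrays left out). Tkt was not called without replicate 1 at 0.08 mg/m3 (-0.30, adjusted p = 0.0699, 0.00298 to 0.0699 over the arrays left out) or with the compared arrays alone (0.0808). Of 14 genes of metal binding and transport, 2 rose and 1 fell, with a median of -0.13. At an unadjusted p under 0.05 by limma, 3 were higher and 6 lower. Of all genes 8.05% were called higher and 10.5% lower, so these few calls do not set the group apart. Slc39a8, an importer of zinc and manganese, measured 8.42, 8.45, 8.62, 8.28 and 8.45 at 0.15 mg/m3, against 7.66, 7.29, 7.49, 6.67 and 8.00 at 0.08 mg/m3, a difference of 1.02 ± 0.22 (SE, adjusted p = 0.000898), and its unexposed mean of 7.98 lay nearer to 0.15 mg/m3. Tfrc, the transferrin receptor, rose by 0.52 ± 0.13 (SE, adjusted p = 0.00493), and Slc39a14, a relative of Slc39a8, fell by 0.42 (adjusted p = 0.016). The Slc39a14 call was lost without replicate 2 or 4 at 0.08 mg/m3 (adjusted p = 0.0506 and 0.114, 0.00245 to 0.114 over the arrays left out) and with the compared arrays alone (0.08).

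Some secretory and transport genes of the epithelium changed. Slc26a4, the anion exchanger pendrin, measured 7.96, 8.18, 8.29, 7.92 and 7.69 at 0.15 mg/m3, against 5.91, 6.20, 6.51, 6.85 and 6.43 at 0.08 mg/m3, a difference of 1.63 ± 0.24 (SE, adjusted p = 9.83e-06). Its groups were separate, and its means from 0 up to 0.60 mg/m3, in order of concentration, were 5.62, 5.93, 6.38, 8.01 and 9.56. The chloride channel Cftr rose by 0.79 ± 0.14 (SE, adjusted p = 0.00012), and of 18 epithelial transport and surface genes 2 rose and 5 fell. The fallers Upk1a, a uroplakin of the apical membrane, and Scin, which severs actin filaments, differed by -1.01 and -1.05 (adjusted p = 0.000835 and 0.002). Muc5b, the airway mucin of secretory cells, measured 11.36, 11.72, 11.58, 11.66 and 11.81 at 0.15 mg/m3, against 10.27, 9.66, 10.44, 10.55 and 10.27 at 0.08 mg/m3, a difference of 1.39 ± 0.29 (SE, adjusted p = 0.000949). With Agr2, a chaperone for mucins (0.72, adjusted p = 0.000932), and Bpifb1, a secreted airway defence protein (0.68, adjusted p = 0.0227), it made 3 risers among 11 goblet cell genes, and 8 did not pass. Bpifb1 was not called without replicate 3 or 5 at 0.15 mg/m3 or replicate 2 at 0.08 mg/m3 (adjusted p = 0.051, 0.0556 and 0.0879, 0.0175 to 0.0879 over the arrays left out). Ccno, a cyclin that multiciliated cells use to amplify centrioles, measured 8.47, 8.53, 8.77, 8.45 and 8.79 at 0.15 mg/m3, against 6.72, 6.99, 7.06, 7.33 and 6.98 at 0.08 mg/m3, a difference of 1.59 ± 0.24 (SE, adjusted p = 1.66e-05). Its groups were separate, whereas 0 of 9 measured ciliated cell markers were called by limma and 3 were higher at an unadjusted p under 0.05. Cetn4, a centrin, and Ift74, a component of ciliary transport, rose by 1.00 and 0.90 (adjusted p = 0.00158 and 0.0246), with unexposed means nearer to 0.15 mg/m3. Ift74 was not called without replicate 5 at 0.15 mg/m3 or replicate 2 or 4 at 0.08 mg/m3 (adjusted p = 0.0626, 0.0697 and 0.106, 0.0137 to 0.106 over the arrays left out).

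Tdh, a mitochondrial threonine dehydrogenase, was the 1 gene among the 12 largest rises with a lower mean at 0.60 than at 0.15 mg/m3. It measured 7.42, 6.79, 7.35, 7.19 and 7.21 at 0.15 mg/m3, against 4.82, 5.07, 5.10, 5.18 and 5.28 at 0.08 mg/m3, a difference of 2.10 ± 0.21 (SE, adjusted p = 5.01e-09). Its means from 0 up to 0.60 mg/m3, in order of concentration, were 3.62, 4.95, 5.09, 7.19 and 5.38. The difference of 0.60 minus 0.15 mg/m3 was -1.81 (adjusted p = 1.01e-07). Of the 14 measured genes of threonine and glycine metabolism Tdh alone was called, and 3 were called higher without replicate 1 at 0.08 mg/m3.

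**Figure D3:**
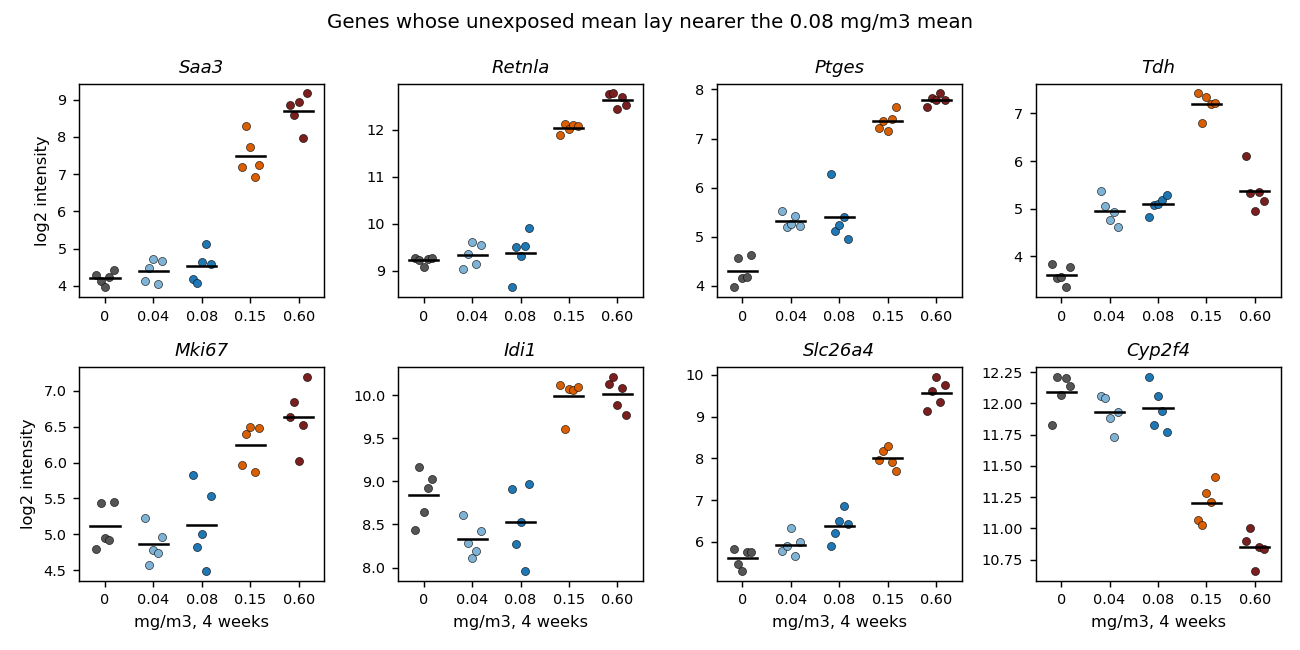
Log2 intensities of 8 genes in the 25 arrays of 4 weeks by Ni3S2 concentration, 1 point per array and a bar at each mean, for genes whose unexposed mean lay nearer to the 0.08 mg/m3 mean. Saa3, Retnla, Ptges, Tdh, Mki67, Idi1 and Slc26a4 are higher at 0.15 than at any of the 3 lower concentrations and Cyp2f4 is lower, and Tdh alone drops again at 0.60 mg/m3 (mean 5.38, against 7.19 at 0.15 mg/m3).

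Several enzymes of xenobiotic metabolism fell. Of 19 measured genes, 8 fell and 11 did not pass, with a median of -0.34, and 6 fell with each array centred on its median. Cyp2f4, a cytochrome P450 of club cells, measured 11.07, 11.03, 11.28, 11.21 and 11.41 at 0.15 mg/m3, against 12.21, 11.83, 12.06, 11.94 and 11.77 at 0.08 mg/m3, and fell by 0.76 (SE 0.11, adjusted p = 7.01e-06). Cyp2a3, a further airway P450, measured 10.50, 10.88, 11.25, 10.87 and 11.12 at 0.15 mg/m3, against 11.93, 11.61, 12.12, 11.82 and 11.96 at 0.08 mg/m3, and fell by 0.97 (SE 0.18, adjusted p = 0.000266). The groups of both were separate, and at 0.60 mg/m3 the means were lower again, at 10.85 for Cyp2f4 and 9.97 for Cyp2a3. The glutathione transferase Gstm2 measured 8.39, 7.38, 8.66, 8.63 and 8.82 at 0.15 mg/m3, against 9.66, 9.13, 9.34, 9.25 and 8.98 at 0.08 mg/m3 (adjusted p = 0.000353), with replicate 2 the lowest of the 0.15 mg/m3 group. Scgb1a1 itself, given above, had overlapping groups, but it lay near the top of the intensity range, so its overlap says little. Of 10 measured club cell markers 3 fell, 1 rose and 6 did not pass, with a median of -0.06. At 0.60 against 0 mg/m3, 6 of the 10 were lower and 0 higher.

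Other falls took in lipid and signalling enzymes. Ces1e, a carboxylesterase, measured 5.45, 5.34, 5.54, 5.39 and 5.37 at 0.15 mg/m3, against 7.89, 6.22, 6.25, 6.29 and 6.16 at 0.08 mg/m3, a difference of -1.15 ± 0.23 (SE, adjusted p = 0.000694). Them5, a mitochondrial acyl-CoA thioesterase, measured 6.03, 6.48, 6.37, 6.23 and 5.89 at 0.15 mg/m3, against 10.43, 6.99, 6.58, 6.86 and 6.90 at 0.08 mg/m3, a difference of -1.35 ± 0.37 (SE, adjusted p = 0.00894). In both genes replicate 1 at 0.08 mg/m3 was far above the rest, and without it the differences were -0.82 for Ces1e and -0.63 for Them5 (adjusted p = 0.00361 and 0.0384, with 0.000375 to 0.00361 and 0.00372 to 0.0384 over the 10 arrays left out in turn). Them5 was not called with the compared arrays alone (adjusted p = 0.153). Pla2g2d, a secreted phospholipase, fell by 1.07 (adjusted p = 0.000304), Dusp9, a MAP kinase phosphatase, by 0.84 (adjusted p = 0.00318), and Hspb8, a small heat shock protein, by 0.82 (adjusted p = 0.000154). Of 21 genes of fatty acid synthesis and use, 7 fell and 14 did not pass, and 12 fell without replicate 5 at 0.08 mg/m3. In 5 of the 7 the unexposed mean lay nearer to 0.15 mg/m3, and in 2 nearer to 0.08 mg/m3. The group median was 0.21 for 0.08 against 0 mg/m3 and -0.10 for 0.15 against 0 mg/m3. Its mean level was 9.04 and 8.71 in replicates 1 and 3 at 0.08 mg/m3, against 8.15 to 8.34 in the others of that group. The acyl-CoA thioesterase Acot1 fell by 1.14 (adjusted p = 0.00397) and its relative Acot2 by 0.55 (adjusted p = 7.51e-05), with overlapping groups. Acadvl, which starts mitochondrial oxidation of long fatty acids, also fell by 0.55 (adjusted p = 0.000675). Its unexposed mean of 8.63 lay nearer to the 8.42 at 0.15 mg/m3 than to the 8.97 at 0.08 mg/m3.

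Errfi1 and other glucocorticoid-responsive genes were lower. Of 12 measured, 7 fell and 5 did not pass, with a median of -0.45. This group held both kinds, since the unexposed mean lay nearer to 0.15 mg/m3 in 4 of the fallers and nearer to 0.08 mg/m3 in 3. The group median was 0.44 for 0.08 against 0 mg/m3 and -0.14 for 0.15 against 0 mg/m3. Errfi1, an inhibitor of the epidermal growth factor receptor, measured 9.87, 9.76, 9.64, 9.49 and 9.47 at 0.15 mg/m3, against 10.43, 10.39, 10.41, 10.80 and 10.04 at 0.08 mg/m3, with no overlap and a difference of -0.77 ± 0.11 (SE, adjusted p = 3.45e-06). Pdk4, which restrains pyruvate oxidation, fell by 1.01 (adjusted p = 0.000747). Its unexposed mean was 10.01, against 9.62 at 0.15 mg/m3 and 10.63 at 0.08 mg/m3. The clock gene Per1 fell by 0.76 (adjusted p = 0.00338) and Angptl4, an inhibitor of lipoprotein lipase, by 0.75 (adjusted p = 0.0199). Angptl4 was not called without replicate 4 or 5 at 0.15 mg/m3 (adjusted p = 0.0828 and 0.0664, 0.00207 to 0.0828 over the arrays left out) or with the compared arrays alone (0.0718). Fkbp5, a classical member of the group, did not pass across this step (0.01, adjusted p = 0.983), with a mean of 8.56 at 0.15 mg/m3 and 8.55 at 0.08 mg/m3. It is named because it was the 1 gene that differed between 0.08 and 0.04 mg/m3, where its mean was 7.59 (0.96 ± 0.17, SE, adjusted p = 0.0244). That call was lost when the 25 arrays of 4 weeks or the compared arrays were fitted alone. It was also lost without replicate 2, 3 or 4 at 0.08 mg/m3 and without replicate 1, 2 or 3 at 0.04 mg/m3.

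The second kind of fall, in which 0.15 mg/m3 lay near the unexposed level, was led by muscle genes. Of 15 smooth muscle markers, 11 fell and 4 did not pass, with a median of -0.82, of 20 heart muscle markers 9 fell, and of 17 skeletal muscle markers 7 fell. In all of these fallers the unexposed mean lay nearer to 0.15 mg/m3. Des, the muscle intermediate filament protein, measured 7.30, 7.34, 7.19, 7.63 and 7.27 at 0.15 mg/m3, against 9.57, 8.89, 8.58, 9.68 and 8.15 at 0.08 mg/m3, and fell by 1.63 (SE 0.23, adjusted p = 7.01e-06). The groups did not overlap, and the unexposed arrays, at 7.59, 7.43, 7.34, 7.40 and 7.32, matched those at 0.15 mg/m3. Actn2, the actinin of sarcomeres, measured 5.40, 6.00, 5.50, 5.52 and 5.92 at 0.15 mg/m3, against 9.51, 7.67, 7.58, 7.47 and 6.19 at 0.08 mg/m3, and its means from 0 up to 0.60 mg/m3, in order of concentration, were 5.33, 7.69, 7.68, 5.67 and 5.51. Ckm, the creatine kinase of muscle, measured 5.40, 6.07, 5.31, 5.37 and 5.66 at 0.15 mg/m3, against 11.90, 7.76, 7.46, 7.26 and 5.96 at 0.08 mg/m3, and its groups overlapped. The differences were -2.02 ± 0.35 (SE, adjusted p = 9.65e-05) for Actn2 and -2.51 ± 0.56 (SE, adjusted p = 0.00158) for Ckm, and without replicate 1 at 0.08 mg/m3 they were -1.56 and -1.55 (adjusted p = 0.000462 and 0.00655). Over the 10 arrays left out in turn, the adjusted p ranged from 2.25e-06 to 0.000527 for Actn2 and from 0.000131 to 0.00655 for Ckm, which was not called with the compared arrays alone (0.0677).

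The skeletal muscle values rested largely on replicate 1 at 0.08 mg/m3, and the smooth and heart muscle values did not. Without it the median difference was -0.23 for the skeletal muscle markers, against -1.35 with it, and -0.77 and -1.22 for the smooth muscle and heart muscle markers, against -0.82 and -1.14. Acta1, the actin of skeletal muscle, and Myl1, a myosin light chain, differed by -2.47 and -2.46 with it (adjusted p = 0.0498 and 0.036) and by -0.80 and -0.84 without it (adjusted p = 0.372 and 0.263, 0.0181 to 0.372 and 0.0108 to 0.263 over the arrays left out). Without replicate 1, 11 smooth, 12 heart and 3 skeletal muscle markers fell, and without replicate 5, which had the lowest heart and smooth muscle levels of its group, 12, 14 and 14 fell. The skeletal count was 12 without replicate 3 at 0.08 mg/m3 and 4 without replicate 1, 3, 4 or 5 at 0.15 mg/m3. The mean level of the heart muscle markers ranged from 6.87 to 7.64 at 0.15 mg/m3, against 7.56 to 8.73 at 0.08 mg/m3, 8.44 to 9.03 at 0.04 mg/m3 and 6.27 to 7.38 in unexposed rats. For smooth muscle the ranges were 6.89 to 7.13 at 0.15 mg/m3, 7.43 to 8.21 at 0.08 mg/m3, 7.71 to 8.06 at 0.04 mg/m3 and 6.93 to 7.20 in unexposed rats. Smooth muscle lines airways and vessels, and in rats a sleeve of heart-type muscle surrounds the pulmonary veins, whereas skeletal muscle is no part of the lung. The part of these markers in the other differences was not tested.

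Some fat cell, matrix and mitochondrial genes were also lower. Of 15 adipocyte markers 6 fell, with a median of -0.84 and mean levels of 6.27 to 8.23 at 0.15 mg/m3, against 6.73 to 9.34 at 0.08 mg/m3. The adipocyte level was lowest, at 6.73, in replicate 4 at 0.08 mg/m3, where the smooth muscle level was highest, at 8.21. Slc2a4, the insulin-regulated glucose transporter of muscle and fat, fell by 1.74 (adjusted p = 0.000637) and Plin4, which coats lipid droplets, by 1.38 (adjusted p = 0.00252), and 3 markers fell without replicate 1, 3 without replicate 3 and 10 without replicate 4 at 0.08 mg/m3. The count was also 10 without replicate 2 and 3 without replicate 5 at 0.15 mg/m3, and 1 when the 10 compared arrays were fitted alone, where Plin4 had an adjusted p of 0.054. Of 28 matrix genes 7 fell and 2 rose. The fibrillar collagens Col5a1 and Col1a1 and the microfibrillar Col6a1 fell by 0.75, 0.69 and 0.59 (adjusted p = 0.000336, 0.00739 and 0.00126), and 3 matrix genes fell without replicate 4 at 0.08 mg/m3 and 11 without replicate 1. Col1a1 was not called without replicate 4 (adjusted p = 0.0511, 0.00247 to 0.0511 over the arrays left out). Of 18 genes of oxidative phosphorylation 10 fell, among them Ndufv1 of complex I, with a mean of 9.05 ± 0.10 at 0.15 mg/m3, against 9.68 ± 0.24 at 0.08 mg/m3 (SD; adjusted p = 0.000111). Uqcrc1 and Cyc1 of complex III and Sdhb of complex II fell by 0.50, 0.47 and 0.38 (adjusted p = 0.000867, 0.00131 and 0.00149). In all 10 the unexposed mean lay nearer to 0.15 mg/m3.

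Lymphoid genes also stood higher at 0.08 mg/m3 than in unexposed rats, by a median of 0.79 for B cell, 0.57 for lymphoid tissue and 0.48 for T cell markers. Of 10 B cell markers 6 fell and 4 did not pass, with a median of -0.74. Cd79b, part of the B cell receptor, measured 5.13, 5.53, 5.14, 6.65 and 5.35 at 0.15 mg/m3, against 6.37, 7.89, 7.26, 7.76 and 6.94 at 0.08 mg/m3, a difference of -1.68 ± 0.30 (SE, adjusted p = 0.000142). Replicate 4 at 0.15 mg/m3 lay inside the range of the 0.08 mg/m3 group. Glycam1, a ligand for lymphocyte homing made by high endothelial venules, measured 7.32, 8.85, 3.86, 9.23 and 7.50 at 0.15 mg/m3, against 8.91, 10.31, 9.88, 10.28 and 9.16 at 0.08 mg/m3, a difference of -2.36 ± 0.64 (SE, adjusted p = 0.00808). Its spread at 0.15 mg/m3 was wide, and the call was lost without replicate 3 of that group (-1.48, adjusted p = 0.0679, 0.00274 to 0.0679 over the 10 arrays left out in turn) and with the compared arrays alone (0.0761). Of 9 markers of lymphoid tissue 4 fell, including the chemokine Ccl19 (-1.12, adjusted p = 0.0179, 0.00301 to 0.0758 over the arrays left out, with the call lost in 4 of 10), with 1 without replicate 3 and 2 without replicate 5 at 0.15 mg/m3 and 2 without replicate 2 or replicate 4 at 0.08 mg/m3. With the 10 compared arrays fitted alone by limma, 0 of the 9 passed and 5 were lower at an unadjusted p under 0.05. Of 17 T cell markers 0 were called by limma, 4 were lower at an unadjusted p under 0.05, and 9 fell without replicate 1 at 0.08 mg/m3, whose T cell level of 5.67 was the lowest of its group. Without replicate 4 at 0.15 mg/m3 2 fell, and the fit with array weights called 13 of them lower. The part of lymphoid cells in the other differences was not tested.

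**Figure D4:**
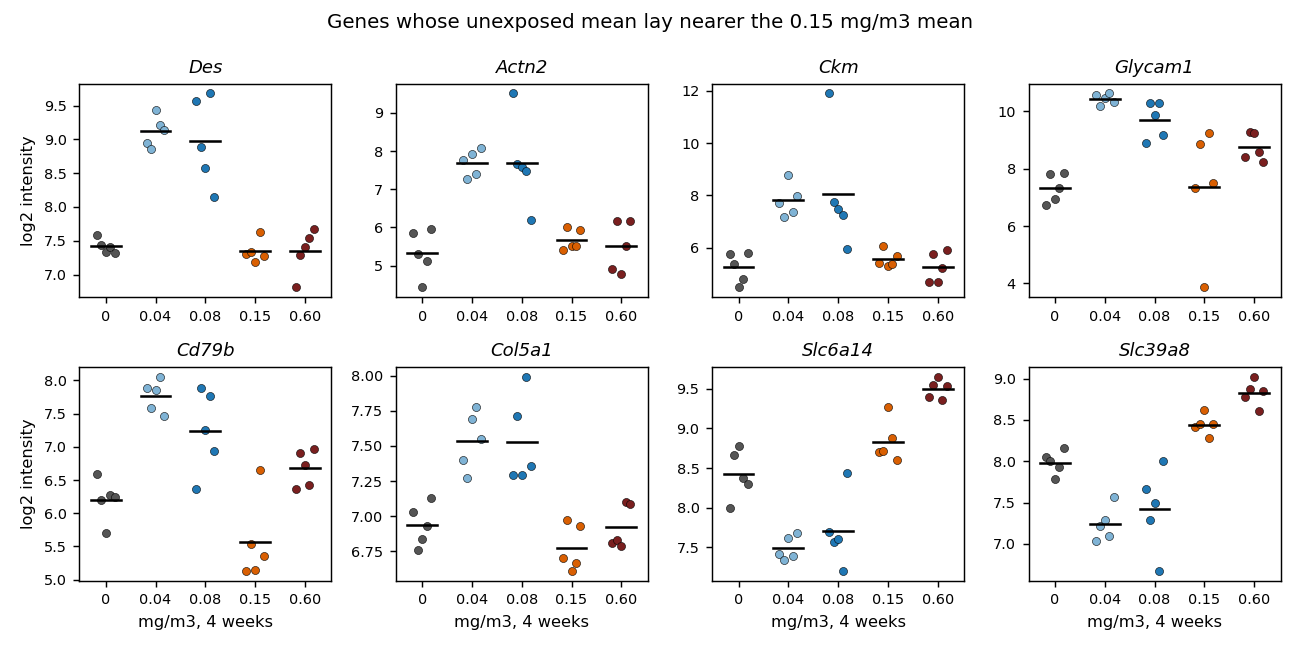
Log2 intensities of 8 genes in the 25 arrays of 4 weeks by Ni3S2 concentration, 1 point per array and a bar at each mean, for genes whose unexposed mean lay nearer to the 0.15 mg/m3 mean. Des, Actn2, Ckm, Glycam1, Cd79b and Col5a1 are raised at 0.04 and 0.08 mg/m3 and lower at 0, 0.15 and 0.60 mg/m3, and Slc6a14 and Slc39a8 dip at 0.04 and 0.08 mg/m3.

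The mirror image was the rises in which the unexposed mean lay nearer to 0.15 mg/m3. The median difference of these 600 genes was 0.40, against -0.42 for the 975 falls of that kind. The largest named rise among them was Slc6a14, an epithelial amino acid transporter, with 8.70, 8.71, 9.27, 8.88 and 8.60 at 0.15 mg/m3, against 7.69, 7.57, 7.61, 7.20 and 8.44 at 0.08 mg/m3, a difference of 1.13 ± 0.23 (SE, adjusted p = 0.000776). The groups were separate, and the unexposed arrays measured 7.99, 8.66, 8.78, 8.37 and 8.30. C9, the last protein of the complement pore, rose by 0.97 ± 0.22 (SE, adjusted p = 0.00198) with an unexposed mean of 7.84, against 8.30 at 0.15 mg/m3 and 7.33 at 0.08 mg/m3. Of the 600 rising genes of this kind 78 reached a 1.5-fold change, against 168 of the 482 whose unexposed mean lay nearer to 0.08 mg/m3. Among the falls the order was opposite, with 289 of 975 and 40 of 437.

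Other comparisons that share no array with this step gave values for these genes in other animals. Of the 1082 genes higher at 0.15 mg/m3, 333 (30.8%) were also higher at 0.60 than at 0 mg/m3 and 19 were lower, where 9.47% and 7.9% of all genes were, and these 333 made 26.2% of the genes higher at 0.60 mg/m3. Of the 1412 lower genes 252 (17.8%, and 23.8% of the genes lower at 0.60 mg/m3) were also lower at 0.60 mg/m3 and 55 were higher. The contrast of 0.04 with 0 mg/m3 ran the other way. Of the 1412 lower genes, 612 (43.3%) were higher at 0.04 mg/m3, where 8.29% of all genes were, and they made 54.9% of that list. Of the 1082 higher genes, 350 (32.3%) were lower at 0.04 mg/m3, where 4.61% were, and they made 56.5% of that list. Only 5 and 4 genes moved the same way in both.

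At 0.60 against 0 mg/m3, Saa3, Slc26a4 and Spp1 differed by 4.49, 3.94 and 4.56 (adjusted p = 2.31e-15, 1.62e-16 and 1.89e-15). Of the gene groups, 30 of 36 mitotic, 18 of 20 interferon-induced and 15 of 19 cholesterol genes were higher there, and 13 of 19 xenobiotic genes were lower. The medians of the skeletal, heart and smooth muscle markers were -0.059, -0.043 and -0.13 there, against 0.63, 1.89 and 0.89 for 0.04 against 0 mg/m3, where 3, 18 and 11 of them were higher. Replicate 3 at 0.04 mg/m3 also carried skeletal muscle transcripts, with Acta1 at 10.87 (others 4.14 to 4.94) and Myl1 at 9.77 (others 4.02 to 4.48). The neighbouring steps had fewer calls. Between 0.60 and 0.15 mg/m3, 385 genes (2.87%) were called, 257 higher (1.91%) and 128 lower (0.953%), and between 0.08 and 0.04 mg/m3 only Fkbp5 was (0.00744%), with 502 genes at an unadjusted p under 0.05.

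The same step after 1 week changed 6284 genes (46.8%), 3110 higher (23.1%) and 3174 lower (23.6%). That count was 1525 when the 10 arrays of the step at 1 week were fitted alone and 4114 to 7252 when 1 of them was left out, the lowest without replicate 1 at 0.08 mg/m3, so the overlaps that follow hold for the fit over all 50 arrays. Of the 1082 genes higher after 4 weeks, 651 (60.2%) were also higher after 1 week and 15 were lower, and these 651 made 20.9% of the 1-week list. Of the 1412 lower genes, 763 (54%, and 24% of the 1-week list) were lower and 24 higher. Retnla differed by 2.65 after 4 weeks and by 2.69 after 1 week (adjusted p = 6.81e-09), and Saa3 by 2.95 and 2.32 (adjusted p = 1.87e-06). The mitotic genes differed by a median of 0.62 after 4 weeks and 0.92 after 1 week, with 27 and 30 of 36 higher.

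Tested directly, the size of the step differed between the times for 913 genes (6.79%), 322 with a more positive difference after 4 weeks (2.4%) and 591 with a more negative one (4.4%). This count was unstable: it ranged from 118 to 3137 when 1 array was left out in turn, both extremes without an array of the 1-week 0.08 mg/m3 group (replicates 1 and 3), and was 0 when the 20 compared arrays were fitted alone with limma, where 2527 genes had an unadjusted p under 0.05. Tdh differed by 2.10 after 4 weeks and 0.29 after 1 week (adjusted p of the difference = 0.000937), and Ptges by 1.96 and 0.20 (adjusted p = 0.00418). Ptges was already high in both 1-week groups, with means of 7.19 at 0.15 and 7.00 at 0.08 mg/m3. Gdf15, a stress-induced cytokine, differed by -0.15 after 4 weeks and -1.65 after 1 week (adjusted p = 0.00903). The muscle genes Actn2 and Srl differed by -2.02 and -1.89 after 4 weeks and by -0.02 and 0.06 after 1 week (adjusted p = 0.0186 and 0.00659). With the 20 compared arrays alone the adjusted p was 0.0523 for Tdh, 0.0739 for Ptges, 0.103 for Gdf15, 0.163 for Actn2 and 0.139 for Srl.

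**Figure D5:**
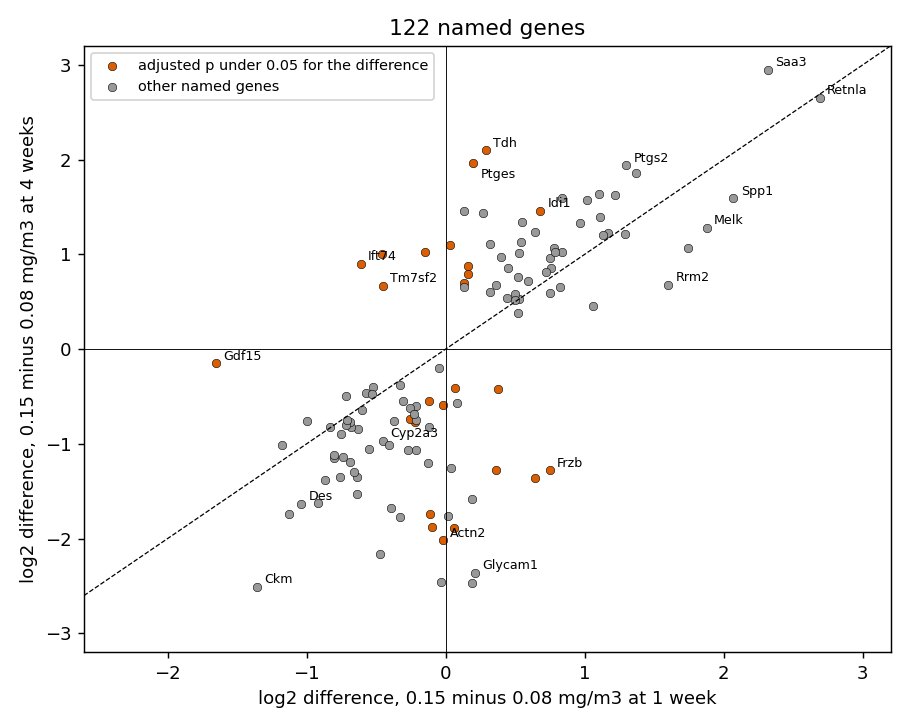
Log2 difference of 0.15 minus 0.08 mg/m3 after 4 weeks (vertical) against that after 1 week (horizontal) for 122 named genes, 1 point per gene, with the line of equal values dashed. Saa3 and Retnla are the highest points at both times, Tdh and Ptges lie high on the vertical axis with little difference at 1 week, and Gdf15 lies far left (-1.65 at 1 week, -0.15 at 4 weeks).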

How the data were processed

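Expression was measured on 50 Affymetrix HT rat arrays, 1 animal each. The deposited values are log2 intensities per probe set, made by RMA in Partek per the submitters' processing notes, with no versions stated. The sources used here do not say whether all arrays were normalized together, or in which batches they were scanned. RMA pulls arrays towards 1 distribution, so a shift of most genes in one direction could be lost. The medians of the 10 compared arrays still ran from 5.4 to 5.55, so offsets between arrays remained in the deposited values.

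Of the probe sets 19063 had 1 gene symbol in the platform annotation, 572 had several and 11407 had none. Each gene was represented by its probe set with the highest mean over all arrays, which gave 13438 genes. limma 3.58.1 in R 4.3.3 fitted 10 group means to all 50 arrays (lmFit, eBayes), with two-sided p-values adjusted over all genes by Benjamini-Hochberg. Genes were called at an adjusted p under 0.05. All log2 differences were computed here from the deposited values. The procedure was tested on simulated data for this comparison with 13438 genes, where 42 of 50 genes changed by 0.5 (log2) and all 50 changed by 1 were called. The simulated noise was independent and had the same spread per gene in all groups. The real arrays at 0.08 mg/m3 were less alike than those at 0.15 mg/m3, so these rates need not hold for them.

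The gene groups and the comparison were chosen with earlier results of these data known. Named genes were the 12 largest rises and falls among called genes with separate groups whose unexposed mean was nearer to 0.08 mg/m3, the 6 of each nearer to 0.15 mg/m3, the 4 largest differences between times in each direction, and up to 4 called members per list. Symbols beginning with LOC, RGD or AABR were left out. Apoe, Ctsk and Fkbp5 were named after their values were seen. Of 819 listed symbols 686 were measured, in 47 lists, of which 28 are plotted. Alternatives changed the arrays fitted, array weights, scaling, the filter on dim genes, the choice of probe set, the variance trend, a replicate block, a minimum fold and the arrays left out. The comparison of 0.04 with 0 mg/m3 and the counts beyond 15 arrays were added after seeing the data. Any pair of the 10 compared arrays differed in at least 31031 probe sets, so none was a copy. Precision is limited by the 5 arrays per group. Promoters were the 250 bases upstream of the start in RefSeq's GRCr8 table.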

Additional observations from a re-analysis of the deposited data

Results flagged for a closer look

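For 25 of the 122 named genes the step of 0.15 against 0.08 mg/m3 differed between 4 weeks and 1 week by limma's test of the difference (adjusted p under 0.05 over all genes). Among all genes 6.79% did. The 4 largest differences between times in each direction were among the grounds for naming, so these shares cannot be compared. With the compared arrays fitted alone, limma called 0 genes, and 2527 had an unadjusted p under 0.05. The values below are the log2 step after 4 weeks minus that after 1 week. More positive after 4 weeks were Tdh (1.81), Ptges (1.76), Ift74 (1.5), Gdf15 (1.49), Cetn4 (1.46), Zfp729b (1.19), Tm7sf2 (1.12) and Ifit2 (1.07). So were Idi1 (0.79), Ankrd37 (0.72), Cftr (0.63) and Chia (0.56). More negative after 4 weeks were the muscle genes Klhl41 (-2.00), Actn2 (-1.99), Srl (-1.95), Cmya5 (-1.79), Pygm (-1.64) and Casq2 (-1.64), and Frzb (-2.03). Smaller negative values belonged to Slc39a14 (-0.80), Col6a1 (-0.57), Errfi1 (-0.55), Nfkbia (-0.48), C1r (-0.48) and Acot2 (-0.43).

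In 19 of 244 combinations of a named gene and a group, 1 array of 5 lay far from the other 4 by Dixon's criterion, which chance meets in about 5% of groups. Replicate 1 at 0.08 mg/m3 accounted for 9 of them. It was high for Acta1 (12.90, others 4.00 to 4.94), Myl1 (12.57, others 3.80 to 4.87) and Pygm (8.41, others 4.51 to 5.49), which are skeletal muscle genes. It was also high for Them5 (10.43, others 6.58 to 6.99) and Ces1e (7.89, others 6.16 to 6.29). It was low for Mmp12 (6.59, others 7.31 to 7.53), Pla2g2d (6.13, others 6.78 to 7.00), Ccl7 (4.50, others 5.65 to 6.02) and Ifit3 (5.01, others 5.98 to 6.16).

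The other 10 cases fell in 7 arrays. At 0.15 mg/m3, replicate 2 was low for Idi1 (9.61, others 10.06 to 10.12) and high for Acadvl (8.71, others 8.29 to 8.38) and Cyc1 (10.49, others 10.17 to 10.24). Replicate 1 was low for Ccne2 (4.06, others 4.75 to 5.00), replicate 3 high for Cftr (6.90, others 6.6 to 6.68), replicate 4 high for Cd79b (6.65, others 5.13 to 5.53) and replicate 5 low for Pla2g2d (5.21, others 5.72 to 5.85). At 0.08 mg/m3, replicate 4 was high for Spp1 (6.05, others 5.42 to 5.48) and Nupr1 (9.26, others 8.78 to 8.85), and replicate 5 was low for Casq2 (6.86, others 7.99 to 8.28).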

How the results depend on the processing

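The 2494 genes called between 0.15 and 0.08 mg/m3 after 4 weeks became 5458 with array weights, 4127 with only the 25 arrays of 4 weeks and 575 at 1.5-fold or more, and 1394 to 2975 with 1 array left out. Between 2310 and 2878 were called under the other settings, with 43.1% to 66.0% of them higher. For the same step after 1 week (6284) the counts were 1525 with only the compared arrays, 1201 at 1.5-fold and 4114 to 7252 with 1 array left out. For the difference between times (913) they were 0 (2527 genes at an unadjusted p under 0.05), 429 and 118 to 3137. For 0.60 against 0 mg/m3 (2334), array weights gave 4289, the 25 arrays 3574, the compared arrays alone 3551, 1.5-fold 740 and 1 array left out 1901 to 2174. For 0.60 against 0.15 mg/m3 (385) they gave 1359, 785, 707, 178 and 249 to 359, and for 0.04 against 0 mg/m3 (1734) 5262, 3082, 3902, 464 and 948 to 1944. For 0.08 against 0.04 mg/m3 (1), limma called 0 with the 25 arrays (831 at an unadjusted p under 0.05) and 0 with the compared arrays (568), and 0 to 2 with 1 array left out. Called genes whose unexposed mean lay nearer to 0.15 mg/m3 (1575) numbered 830 to 2101 with 1 array left out. Arrays centred on their medians moved the share of higher calls from 54.5% to 37.1% for 0.60 against 0 mg/m3, from 64.2% to 39.6% for 0.04 against 0 mg/m3, from 66.8% to 46.1% for 0.60 against 0.15 mg/m3 and from 35.3% to 70.2% for the difference between times. The cause of these shifts was not tested. Of 1210 differences of the 121 called named genes with 1 array left out, 1132 kept their call, 78 lost it and 0 changed sign, and 98 of the 121 genes kept it in all 10 such fits.

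The labels do not say whether replicate numbers pair animals, and correlations of 5 arrays per group cannot settle it. Same-numbered arrays at 0.15 and 0.08 mg/m3 correlated at -0.0129 to 0.155 in their deviations after 4 weeks, and 1 of 5 correlated best with its own number. After 1 week the correlations ran from -0.355 for replicate 4 to 0.334 for replicate 3, which alone correlated best with its own number. A fit with the replicate number as a block called 2402 genes for the step after 4 weeks, 6230 after 1 week, 820 for the difference between times, 2284 for 0.60 against 0, 371 for 0.60 against 0.15, 1 for 0.08 against 0.04 and 1696 for 0.04 against 0 mg/m3.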
